A study of Mus musculus with 8 samples.

Results

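The genes described here are 10 immediate early genes outside the AP-1 family: Egr1, Egr2, Nr4a1, Nr4a2, Nr4a3, Ier2, Ier3, Klf2, Klf4 and Myc. They were taken by name from a table of 20681 gene rows that the authors deposited for mouse knee joints, and all 10 were found there, once each. The table holds normalised read counts, that is, the reads of a gene divided by a size factor for its library, from poly-A RNA of 8 joints, 4 in each of a control and a knockout group. By the series text all 8 joints, controls included, came from Acan-Cre;Loxl2 fl/fl mice, which have a Cre recombinase under the aggrecan gene of cartilage cells with loxP-flanked alleles of Loxl2, whose enzyme crosslinks collagen. The control joints were given vehicle, and their library names carry LOXL2wt, while the others are called conditional knockouts with LOXL2ko in their names, and what the knockout joints received in place of vehicle is not given in the sources used here. All 8 library names carry DMM, which usually stands for surgical destabilisation of the medial meniscus, and no name marks an uninjured joint. The age and sex of the mice, and the time after injury, are also not given in the sources used here. A Cre that acts in cartilage is limited as a model here, since whole joints hold many other cells, among them the muscle and fibroblasts whose marker genes are given below.

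Immediate early genes are genes whose transcription starts within minutes of a stimulus such as a growth factor, stretch, injury or a cytokine, without new protein synthesis. Signals through ERK, p38 and calcium activate SRF with its ELK partners at CArG boxes, and CREB at cAMP response elements. Several of their products are transcription factors, which pass the signal on to a second set of genes, while phosphatases, Nab co-repressors and mRNA-decay proteins end the response. The same genes also respond to tissue handling, and in joints they are known from mechanically loaded cartilage, activated synovium, macrophages and contracting muscle.

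Between 13991000 and 17411617 reads were assigned to genes per library. Loxl2 itself was examined as a check of the labels: control replicates 1 to 4 had normalised read counts of 282, 349, 1135 and 311, against 893, 1468, 960.3 and 1518 in knockout replicates 1 to 4. The targeted transcript was thus more abundant on average in the libraries labelled knockout. Control replicate 3 stood apart from its group and lay above knockout replicates 1 and 3, so the groups overlapped. By the test described below, the log2 difference of 1.44 was called (SE 0.40, limma adjusted p = 0.0294). The call was lost in 8 of 18 alternative settings, among them edgeR (adjusted p = 0.0669) and DESeq2 (adjusted p = 0.0659). Counts from whole joints do not show Loxl2 in cartilage cells alone, so these values cannot decide whether the labels are right. The groups are therefore called by their labels, and directions below are between libraries labelled knockout and libraries labelled control. The labels do not say that the joints came from separate animals, so the p-values measure the spread between these samples, which may be technical. The 11 chondrocyte markers held 0.0242 to 0.0748% of all values in control libraries and 0.0659 to 0.103% in libraries labelled knockout. Acan, from this list, was at 221 ± 222 among controls and 286 ± 93.3 among libraries labelled knockout (SD, n = 4 each). The 18 skeletal muscle markers held 16.0 to 16.6% of all values in control libraries and 9.62 to 12.7% in libraries labelled knockout.

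Of the 10 genes, 4 were called higher in the libraries labelled knockout (Egr1, Nr4a2, Ier2 and Ier3) and 0 were called lower by limma. A gene is called when its limma p-value, adjusted by Benjamini-Hochberg over all 14949 genes tested, is under 0.05. Over all genes tested, 23.2% were called, 11.6% higher and 11.6% lower, and this background of widespread differences stands beside every count here. When each library was rescaled without muscle, erythroid, neutrophil and the 50 highest genes, the median of all genes moved by 0.15 on the log2 scale and the calls split into 2708 higher and 785 lower, with 4 of the 10 genes called higher and 0 lower. At an unadjusted p under 0.05, 6 of the 10 passed, 5 higher and 1 lower, the last being Nr4a1, where 38.4% of all genes tested passed, 19.2% higher and 19.2% lower. Counts recovered from the values and tested with edgeR gave 4 higher and 0 lower (background 22.2%, of which 11.3% higher and 10.9% lower), and with DESeq2 5 higher and 1 lower (background 27.6%, of which 14.3% higher and 13.3% lower). The median log2 difference of the 10 genes was 0.41, from -0.48 for Nr4a1 to 1.30 for Nr4a2, beside a median of 0.00 over all genes tested. For 5 of the 10 every library labelled knockout lay above every control library, as did 11.7% of all genes tested, and for 0 of the 10 the reverse held (13.4% of all genes, 25.1% in either direction). All 10 exceeded the filter value of 10 in all 8 libraries, and the lowest value of any of them was 20.2, for Egr2 in control replicate 2. In whole-joint RNA, a change in the number of cells of a type and a change in RNA per cell cannot be told apart.

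**Figure D1:**
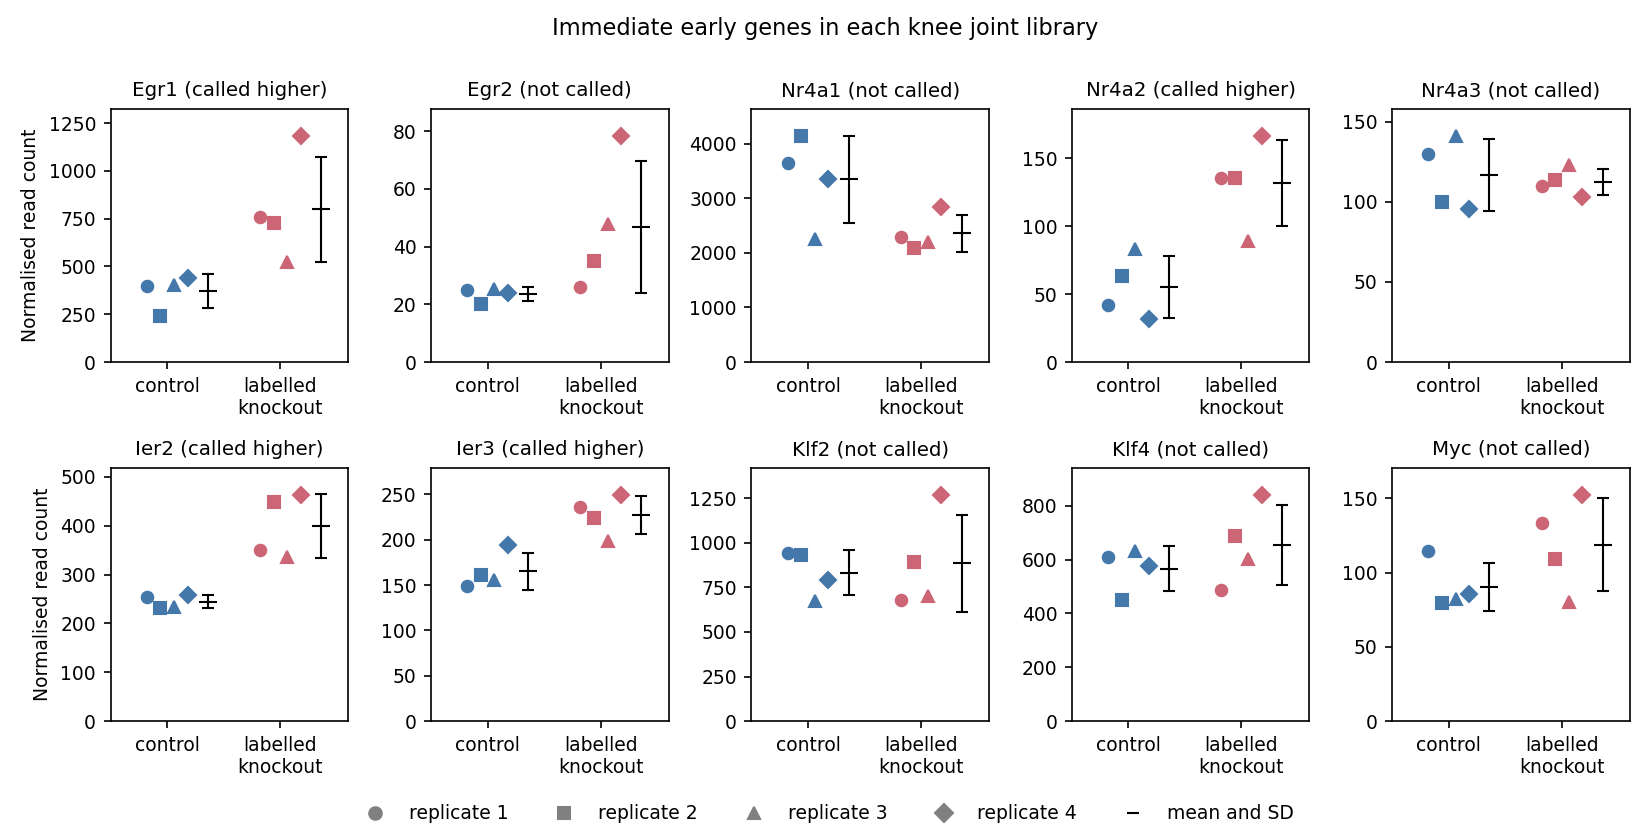
Normalised read counts (vertical axes, each from 0) of the 10 immediate early genes in 4 control libraries (blue) and 4 libraries labelled knockout (red). Marker shapes give the replicate number, and the black bars give mean and SD of each group. For Egr1, Egr2, Nr4a2, Ier2 and Ier3 no red point overlaps the blue ones, and knockout replicate 4 (diamond) is the highest red point in 9 of the 10 panels.

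Egr1 and Egr2 encode zinc finger transcription factors that bind the same GC-rich DNA element, and Egr1 is a classical target of SRF after serum or mechanical load. Egr1 (chromosome 18, 34859823 to 34864984, plus strand, mm10) had normalised read counts of 398, 243, 406 and 438 across the control libraries, in replicate order, against 759.9, 729, 525 and 1183 in knockout replicates 1 to 4. All libraries labelled knockout were above all controls, with control replicate 2 lowest and knockout replicate 4 highest. The means were 371 ± 87.1 and 799 ± 276 (SD, n = 4 each), a log2 difference of 1.08 (SE 0.25, limma adjusted p = 0.0158). Egr1 was called under all 18 alternative settings, with a log2 difference between 0.87 (without knockout replicate 4) and 1.26 (without knockout replicate 3).

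Egr2 (chromosome 10, 67535475 to 67542188, plus strand) was the scarcest of the 10. Its values were 24.9, 20.2, 25.2 and 24.1 in the control replicates and 25.9, 35.1, 47.8 and 78.3 in knockout replicates 1 to 4. The groups did not overlap, but knockout replicate 1 lay only just above the highest control while knockout replicate 4 was far above it. The log2 difference of 0.85 (SE 0.33, 95% interval 0.11 to 1.58) was not called (limma adjusted p = 0.0886). It was called without knockout replicate 1 (log2 difference 1.08, limma adjusted p = 0.0456) and by DESeq2 (0.998, adjusted p = 0.0417), and over the 17 alternatives that could test it the adjusted p ran from 0.0417 to 0.235. Egr3, a further member of the family that was not among the 10, rose with a log2 difference of 1.09 (SE 0.31, limma adjusted p = 0.0301). It had 72.5, 37.3, 78.5 and 55.9 reads in the control replicates and 178, 102, 83.7 and 166 in the knockout replicates, and its call was lost without control replicate 2 or 4, without knockout replicate 1 or 4, or under quantile normalisation. Nab2, which encodes a co-repressor that binds Egr proteins and is itself induced by them, rose by 0.88 (SE 0.18, limma adjusted p = 0.0105), from 142 ± 25.6 to 263 ± 49.3. Nab2 overlaps Stat6 and Nemp1 on the opposite strand, and since the use of strand in counting is not given in the sources used here, its reads may not be fully its own. None of the 10 immediate early genes overlaps another annotated gene in GENCODE M21. For the other genes named below, overlaps are stated only in part. Hspd1, Zfp36l1, Zfp36l2, Ccnd2, Dusp8, Dusp10, Mxd4 and Mef2d are among those that also overlap genes on the opposite strand.

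The bases before a RefSeq start site of Egr2 on GRCm38.p6 are shown because they carry a CArG box, the SRF site of serum-responsive genes, in capitals. A CArG box was found before 4 of the 5 annotated starts, but it was not the box shown in all of these. In the window that begins at 67537316 it lay 72 bases before the start, outside the stretch shown. CArG boxes were searched on both strands and were found in 1.47% of the 32851 windows. Of the 10 genes, 7 had an entry in the RefSeq promoter table (not Egr1, Ier2 or Myc), and a CArG box was found before the start of Egr2 alone among those 7. The Egr2 stretch also holds 2 copies of the TGACG core of the cAMP response element described below, left in lower case.
Egr2, chr10:67537619-67537868, plus strand: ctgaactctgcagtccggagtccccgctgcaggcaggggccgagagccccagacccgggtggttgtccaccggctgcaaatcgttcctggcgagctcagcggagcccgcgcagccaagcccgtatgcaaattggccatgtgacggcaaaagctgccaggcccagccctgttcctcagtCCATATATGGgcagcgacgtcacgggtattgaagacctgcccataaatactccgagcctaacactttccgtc

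The Nr4a genes encode orphan nuclear receptors (Nur77, Nurr1 and Nor1) that act without a known natural ligand, so that their abundance sets much of their activity. All are known targets of cAMP and calcium signals through CREB. The stretches before their RefSeq start sites on GRCm38.p6 are shown because all carry several copies of the core of the cAMP response element, while only Nr4a2 among the 3 was called by limma. The core, TGACG or its reverse CGTCA, is in capitals, on both strands. In 250 bases before the start, 4 matches were found in each of the 3 genes, whereas 17.8% of the 32851 windows of the same length held at least 1 match and 0.137% held 4 or more. The full palindrome TGACGTCA, found in 1.55% of windows, was in none of them. The Nr4a3 stretch stops before the first annotated exon, which holds its remaining match. These are matches of letters and not measured sites.
Nr4a1, chr15:101266596-101266845, plus strand: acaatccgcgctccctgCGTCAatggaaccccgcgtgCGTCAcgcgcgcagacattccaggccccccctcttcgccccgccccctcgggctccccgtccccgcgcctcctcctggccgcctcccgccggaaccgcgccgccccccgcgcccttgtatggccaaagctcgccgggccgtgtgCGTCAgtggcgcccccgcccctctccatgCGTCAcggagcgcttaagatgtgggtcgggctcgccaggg
Nr4a2, chr2:57124004-57124253, minus strand: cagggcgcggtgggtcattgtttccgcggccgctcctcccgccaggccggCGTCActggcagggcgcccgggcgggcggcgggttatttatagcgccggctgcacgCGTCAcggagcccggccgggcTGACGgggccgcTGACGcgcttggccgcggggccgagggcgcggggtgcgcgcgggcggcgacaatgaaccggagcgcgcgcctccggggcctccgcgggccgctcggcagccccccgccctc
Nr4a3, chr4:48045055-48045152, plus strand: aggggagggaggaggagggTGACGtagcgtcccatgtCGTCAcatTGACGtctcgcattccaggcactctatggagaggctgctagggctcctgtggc

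Nr4a2 (chromosome 2, 57106830 to 57124003, minus strand) had the largest difference of the 10. Its normalised read counts were 42.2, 63.6, 83.2 and 31.8 across the control libraries against 136, 135, 89.2 and 166 in knockout replicates 1 to 4. The groups did not overlap, although control replicate 3 and knockout replicate 3 were close together. The means were 55.2 ± 22.9 and 132 ± 31.8, a log2 difference of 1.30 (SE 0.31, limma adjusted p = 0.0168). The call was lost without knockout replicate 4 (log2 difference 1.17, limma adjusted p = 0.0549) and held in the other 7 leave-one-out fits.

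Nr4a1 (chromosome 15, 101254269 to 101274795, plus strand) was by far the most abundant of the 10. Its values were 3646, 4139.6, 2256 and 3354 across the control libraries against 2288, 2095, 2191 and 2841 in knockout replicates 1 to 4. Control replicate 3 lay among the libraries labelled knockout, and the other 3 controls lay above all of them. The means were 3349 ± 797 and 2354 ± 335, and the log2 difference of -0.48 (SE 0.18, 95% interval -0.88 to -0.09) was not called (limma adjusted p = 0.0737). Without control replicate 3, which was also the control library with the high Loxl2 value, the difference was -0.66 and was called (limma adjusted p = 0.00851), and DESeq2 called it on all libraries (log2 difference -0.50, adjusted p = 0.0323). Quantile normalisation brought it to -0.28 (limma adjusted p = 0.267).

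Nr4a3 (chromosome 4, 48045153 to 48086447, plus strand) had 129.8, 99.9, 141 and 95.3 normalised reads in the control replicates and 109.7, 114, 123 and 103 in the knockout replicates. All values of the knockout replicates lay within the range of the controls. The log2 difference was -0.04 with a 95% interval of -0.40 to 0.33 (limma adjusted p = 0.896), and its sign changed with the scaling and with the libraries left out.

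Whether the family members differed from each other was asked of the log2 ratio of 2 genes within a library. The ratio was taken with 1 added to each value. Gene length and library scaling therefore nearly, but not fully, cancel from the difference between groups. This comparison was done for 6 pairs of related genes and was chosen after their values had been seen. The log2 ratio of Nr4a2 to Nr4a1 lay between -6.68 and -4.74 in control libraries and between -4.60 and -3.94 in libraries labelled knockout, so the groups did not overlap. The difference between groups was 1.78 (exact two-sided permutation p = 0.0286, the smallest that 4 libraries against 4 can give, and 0.0857 adjusted over the 6 pairs). The log2 ratio of Nr4a3 to Nr4a2 differed by -1.33 (exact permutation p = 0.0286, adjusted 0.0857). After adjustment neither passed 0.05, and neither could have with only these 2 of the 6 pairs at that smallest p. The adjusted values therefore do not decide whether these ratios differed. The difference was 0.45 for Nr4a3 to Nr4a1 (exact permutation p = 0.257), -0.23 for Egr2 to Egr1 (0.514), -0.23 for Ier3 to Ier2 (0.143) and 0.14 for Klf4 to Klf2 (0.571), each unadjusted by exact permutation.

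**Figure D2:**
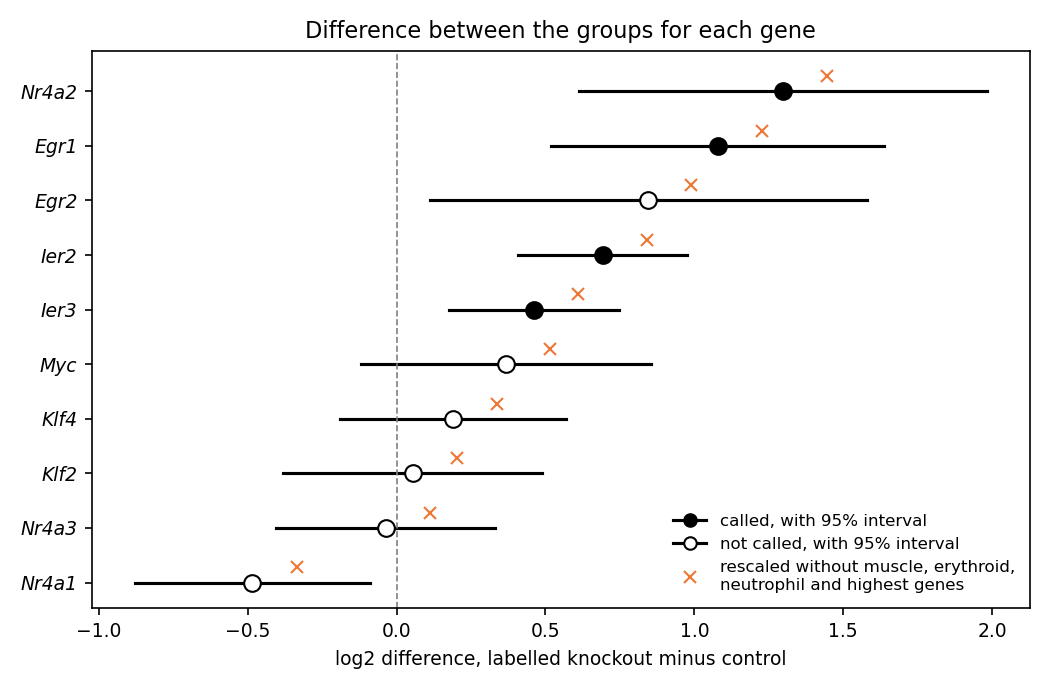
Log2 difference of each gene, labelled knockout minus control (horizontal axis), with its 95% limma interval from 4 libraries against 4. Filled circles were called at an adjusted p under 0.05, open circles were not, and orange crosses give the difference after rescaling without muscle, erythroid, neutrophil and the highest genes. Nr4a2, Egr1, Ier2 and Ier3 are called, and Nr4a1 lies farthest to the left at -0.48.

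Ier2 and Ier3 encode small short-lived proteins, the first a nuclear regulator of transcription and the second a stress-induced protein of cell survival that prolongs ERK signalling. Ier2 (chromosome 8, 84661331 to 84662852, minus strand) had 254, 232, 235 and 257 normalised reads in the control replicates and 350.1, 448, 336 and 463 in knockout replicates 1 to 4. The controls were within a narrow range and all libraries labelled knockout lay above it. The log2 difference was 0.69 (SE 0.13, limma adjusted p = 0.00765), the smallest adjusted p of the 10, and it was called under all 18 alternatives (0.62 to 0.84).

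Ier3 (chromosome 17, 35821684 to 35822923, plus strand) had 149, 162, 155 and 194 normalised reads in the control replicates and 236, 224, 199 and 249 in the knockout replicates. The groups did not overlap, but control replicate 4 and knockout replicate 3 were close. The log2 difference was 0.46 (SE 0.13, limma adjusted p = 0.0290). The call was narrow: it was lost in 8 of 18 alternatives, among them quantile normalisation and 6 leave-one-out fits (those without control replicate 1, 2 or 3 or without knockout replicate 1, 2 or 4), where the adjusted p was between 0.0570 and 0.0958. Ier5l, a related gene outside the 10, rose from 114 ± 23.7 to 249 ± 65.0, a log2 difference of 1.10 (SE 0.21, limma adjusted p = 0.00917), and was called under all 18 alternatives.

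Klf2 and Klf4 encode Kruppel-like zinc finger factors, best known from endothelium under flow and, for Klf4, from epithelia, macrophages and bone-forming cells. Klf2 (chromosome 8, 72319033 to 72321656, plus strand) had 941, 929.7, 673 and 789 normalised reads in the control replicates and 681, 891, 701 and 1268 in the knockout replicates. Apart from knockout replicate 4, all knockout values lay within the range of the controls. The log2 difference was 0.05 with a 95% interval of -0.38 to 0.49 (limma adjusted p = 0.865), and without knockout replicate 4 it was -0.13. Klf4 (chromosome 4, 55527143 to 55532466, minus strand) had 609, 448, 633 and 577 in the control replicates and 488, 687, 601 and 839.7 in the knockout replicates, again with overlapping groups. Its log2 difference was 0.19 with a 95% interval of -0.19 to 0.57 (limma adjusted p = 0.442). The 12 endothelial markers had 0 members called by limma, 0 at an unadjusted p under 0.05 and 0 by edgeR or DESeq2 (3 were called lower without knockout replicate 3), and their summed level was 6719 to 8434 in control libraries and 5414 to 10627 in libraries labelled knockout. Of the other Egr, Nr4a, Ier and Klf genes, 12 were tested, 2 were called higher (Ier5l and Egr3) and 2 lower, with a median of 0.07. The 2 lower genes were Klf5, a factor of proliferating epithelial and smooth muscle cells (log2 difference -0.51, SE 0.14, limma adjusted p = 0.0313), and Klf9, a glucocorticoid-responsive factor (-0.37, SE 0.11, limma adjusted p = 0.0385). Neither was called once the libraries were rescaled without muscle, erythroid, neutrophil and the 50 highest genes (limma adjusted p = 0.0976 for Klf5 and 0.144 for Klf9). With control replicate 2 omitted, 1 of these 12 was called higher and 0 lower. With knockout replicate 4 omitted, 1 was called higher and 1 lower, and with knockout replicate 1 or 2 omitted, 0 were called lower. With control replicate 1, control replicate 4 or knockout replicate 3 omitted, 1 was called lower. Klf9 kept its call in 9 of 18 alternatives and Klf5 in 11.

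Myc encodes a helix-loop-helix factor that, with its partner Max, drives growth and ribosome making, and Mxd proteins oppose it at the same DNA element. Myc (chromosome 15, 61985391 to 61990374, plus strand) had 115, 79.7, 82.3 and 85.4 normalised reads in the control replicates and 134, 109, 80.5 and 152 in the knockout replicates. The groups overlapped, with control replicate 1 above knockout replicates 2 and 3, and knockout replicate 3 among the other 3 controls. The log2 difference was 0.37 with a 95% interval of -0.12 to 0.85 (limma adjusted p = 0.245) and was called under none of the 18 alternatives. Of 20 genes long described as Myc targets, all tested, 3 rose and 1 fell, with a median of -0.07. Those that rose were Cdk4, a kinase of the cell cycle (0.43), Srm, the spermidine synthase (0.64), and Ccnd2, a D-type cyclin (1.06), with limma adjusted p-values of 0.00749, 0.00928 and 0.0141 and a call under every alternative. Cdk4 overlaps Tspan31 on the opposite strand. Ldha, lactate dehydrogenase of muscle, fell by 0.54 (limma adjusted p = 0.0307), a call that was lost in 9 of 18 alternatives, among them the rescaling (limma adjusted p = 0.0685) and the fits that omitted replicate 1, 2 or 4 of either group. In the network of Nab co-repressors and Myc partners, 2 of 12 tested genes rose and 1 fell, with a median of 0.28. Besides Nab2 these were Mxd4, a Myc antagonist (0.44, limma adjusted p = 0.0163), and Mlxip, a glucose-sensing factor (-0.67, limma adjusted p = 0.00780). Under the rescaling 6 of the 12 were called higher and 1 lower, and without control replicate 3, 4 were called higher.

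Among upstream regulators of early genes (SRF, ELK, MRTF, CREB, CRTC and MEF2 factors, MAP kinases and STAT3), 18 genes were tested, 3 were called higher and 4 lower, with a median of -0.06. Srf itself, at 1493, 1692, 1439 and 1826 in the control replicates and 1191, 1326, 1258 and 1069 in the knockout replicates, fell by 0.41 on the log2 scale (SE 0.10, limma adjusted p = 0.0202) with no overlap between the groups, and it overlaps Gm26904 on the opposite strand. Its call was lost in 6 of the 18 alternatives. These were the fits without control replicate 2 or 4 or knockout replicate 4, quantile normalisation and the rescaling (limma adjusted p = 0.0670). The last was a replicate block, that is, a term for the replicate number. The genes of the MEF2 factors Mef2c and Mef2d, which are abundant in muscle, fell by 0.57 and 0.42 (limma adjusted p = 0.00613 and 0.00775), and were not called under quantile normalisation (0.0959 and 0.134). The ERK1 gene Mapk3 rose by 0.43 (limma adjusted p = 0.0333), the ERK5 gene Mapk7 by 0.49 (0.0235) and Stat3 by 0.25 (0.0403). Each of these 3 lost its call in at least 6 of the 18 alternatives. Mapk7 lies opposite Mfap4, and Stat3 overlaps Stat5a. The split of this list turned with the scaling: after the rescaling 6 were called higher and 2 lower, and under quantile normalisation 2 higher and 0 lower. With the replicate block 0 were called higher and 2 lower, as was also the case without control replicate 2 or 4 or knockout replicate 4. Without knockout replicate 1, 1 was called higher.

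Of 14 genes of MAP kinase phosphatases, Sprouty and Spred proteins, not all of which act mainly on ERK, 1 was called higher and 2 lower, with a median of 0.01. Spred1, a Sprouty-related inhibitor of Ras, rose by 0.99 (SE 0.23, limma adjusted p = 0.0153) and was called under every alternative. The genes of the MAP kinase phosphatases Dusp8 and Dusp10 fell by 0.66 and 0.40 (limma adjusted p = 0.0257 and 0.0344), calls that the rescaling removed (0.0620 and 0.148). Over the 18 alternatives Dusp8 lost its call in 6 and Dusp10 in 8. Of the 14 genes, 0 were called lower with the replicate block, and 0 without control replicate 1 or 4 or knockout replicate 1. The count was 1 without control replicate 2 or 3 or knockout replicate 4.

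Among 12 genes of the AP-1 and related bZIP factors, the partner arm of the early response, 4 were called higher and 0 lower by limma, with a median of 0.49. At an unadjusted p under 0.05, 6 were higher and 0 lower (38.4% of all genes tested passed this threshold), and edgeR and DESeq2 each called 4 higher and 0 lower. Junb had 358, 331, 491 and 369 normalised reads in the control replicates and 805, 818, 787 and 1077 in the knockout replicates, a log2 difference of 1.17 (SE 0.15, limma adjusted p = 0.00397), and it lies opposite Prdx2. Fosl2 (1.03, limma adjusted p = 0.00581) and Jund (0.50, 0.0433), which overlaps Gm11175, were also called higher. Fosl2 was called under all 18 alternatives, whereas Jund lost its call in 7 of the 8 leave-one-out fits, all but that without knockout replicate 1 (limma adjusted p between 0.0526 and 0.116). Without control replicate 2, or without knockout replicate 4, 2 of these 12 were called higher, and without knockout replicate 2, 1 was called lower.

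Of 41 further early response genes tested, 6 rose and 5 fell, with a median of 0.19. The 4 rises of smallest p were Socs3, a feedback inhibitor of cytokine signals (1.01, SE 0.14, limma adjusted p = 0.00422), the mRNA-decay factors Zfp36l2 (0.89, 0.00765) and Zfp36l1 (0.72, 0.00841), and Btg1, an antiproliferative gene (0.57, 0.0182). Socs3 had 207, 255, 268 and 244 normalised reads in the control replicates and 455, 609, 399 and 520.2 in the knockout replicates, with no overlap. The 4 falls of smallest p were Homer1, a scaffold of calcium signalling (-0.63, limma adjusted p = 0.00828), Trib1 (-0.67, 0.0264), the kinase Sgk1 (-0.36, 0.0290) and Nfil3, a clock-related repressor (-0.69, 0.0294). Of these falls, only that of Homer1 stayed called after the rescaling, under which 9 of the 41 were called higher and 1 lower. Without knockout replicate 4, 3 of the 41 were called higher, and without control replicate 2 or knockout replicate 2, 1 was called lower.

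Of 11 heat shock genes tested, chaperones that also respond to handling of tissue, 0 were called higher and 5 lower by limma, with a median of -0.45. The part of tissue handling in these values, or in those of the early genes, was not tested. At an unadjusted p under 0.05, which 38.4% of all genes tested passed, 0 were higher and 6 lower. Hspa8 (-0.46, limma adjusted p = 0.0109), Hspd1 (-0.40, 0.0198), Hspb1 (-0.53, 0.0232) and Bag3 (-0.45, 0.0247) were those of smallest p, and all are abundant in muscle. Under quantile normalisation, and likewise under the rescaling, 1 of the 11 was called lower. Without control replicate 2, or without control replicate 4, 2 were called lower, and without knockout replicate 1, 3 were.

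**Figure D3:**
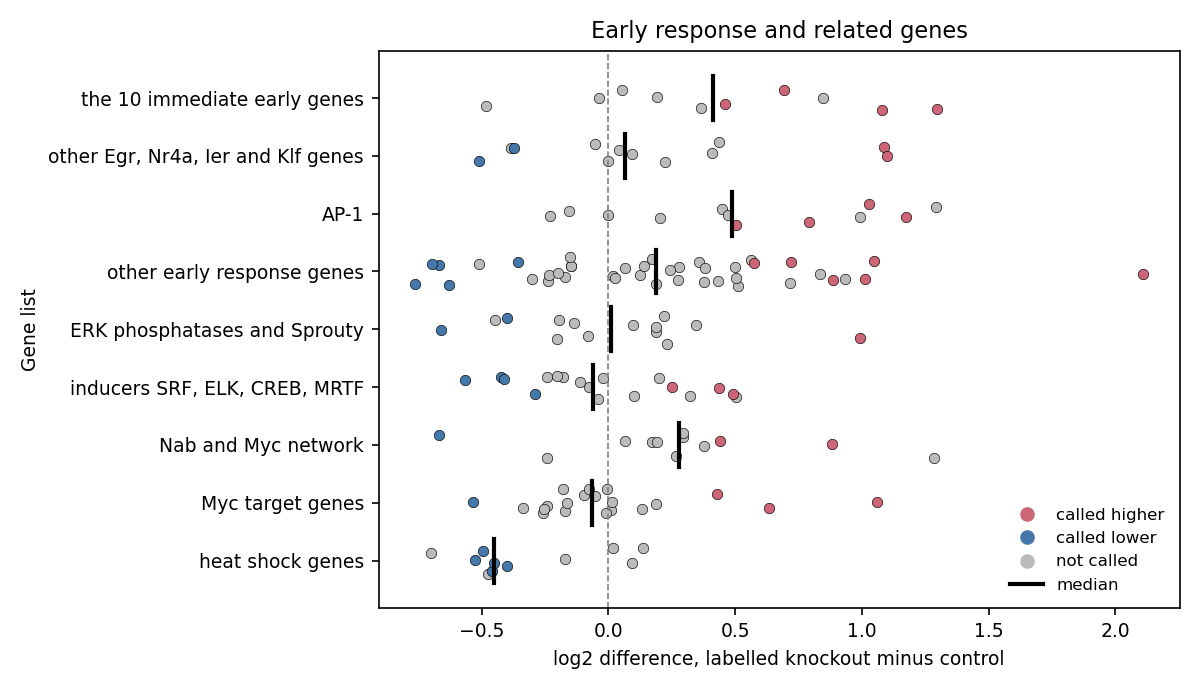
Log2 difference (horizontal axis, labelled knockout minus control) of every tested gene in the 10 immediate early genes and 8 related lists (rows). Red points were called higher, blue points called lower and grey points not called, and black bars are medians. The medians run from 0.49 for AP-1 and 0.41 for the 10 genes to -0.45 for heat shock genes.

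To compare levels between the 10 genes, the mean values were divided by the length of each gene's annotated exons in kilobases. In control libraries the order was Nr4a1 (954 ± 227 per kilobase), Klf2 (451 ± 68.9), Klf4 (186 ± 27.0), Ier2 (161 ± 8.57), Ier3 (146 ± 17.6), Egr1 (82.8 ± 19.4), Myc (33.3 ± 5.98), Nr4a3 (19.5 ± 3.74), Nr4a2 (13.6 ± 5.64) and Egr2 (6.95 ± 0.68). The intervals of mean ± SD overlapped among Klf4, Ier2 and Ier3, and also between Nr4a3 and Nr4a2. These intervals do not use that the genes were measured in the same libraries. Before division by length, the ratio of Nr4a2 to Nr4a3 was 0.325 to 0.636 in control libraries. In the libraries labelled knockout Nr4a1 was still highest (671 ± 95.3) and Egr2 still lowest (13.8 ± 6.73), while Nr4a2 (32.4 ± 7.84) stood above Nr4a3 (18.8 ± 1.39). Within the Nr4a family, the level of Nr4a1 per kilobase thus exceeded that of its relatives in both groups.

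Knockout replicate 4 had the highest value of its group for 9 of the 10 genes, all but Nr4a3, whereas it was the highest of its group for 24.3% of all genes tested. In the control group, replicate 2 was lowest for 5 of the 10 genes (25.4% of all genes tested). Without knockout replicate 4, 2 of the 10 genes were called, Egr1 (log2 difference 0.87, limma adjusted p = 0.0398) and Ier2 (0.62, 0.0253). Without control replicate 3, the control with the high Loxl2 value, 3 were called higher and 1, Nr4a1, lower. Knockout replicate 4 also had the highest sum of macrophage markers, 14680.4, and the lowest sum of skeletal muscle markers, 1275220. The macrophage markers were 10 of 12 called higher, with sums of 2996 to 6910 in control libraries and 10315 to 14680.4 in libraries labelled knockout, and 9 of 12 fibroblast markers were called higher, with sums of 51615 to 147135 and 192689 to 302974. Without knockout replicate 4, 7 macrophage and 5 fibroblast markers were called higher. Of 18 skeletal muscle markers 9 were called lower and 0 higher by limma, 15 lower by edgeR and 16 by DESeq2. By limma 5 were called lower without control replicate 4 or under quantile normalisation, and the lowest count over the 18 alternatives was 4. Their sums were 2630080 to 2838130 in control libraries and 1275220 to 1777840 in libraries labelled knockout. No marker of these 3 lists was at 0 in any library. The part of these tissue differences in the values of the 10 genes was not tested.

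**Figure D4:**
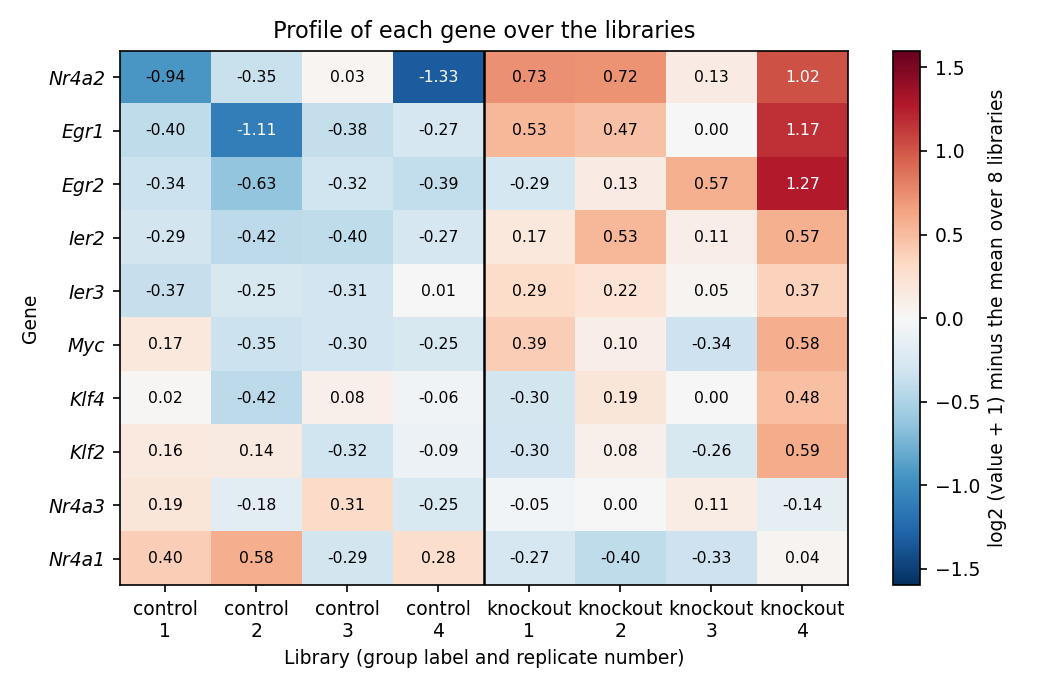
Each row is a gene and each column a library, with the group label and replicate number below. Cells give log2 of the normalised read count plus 1, minus the gene's mean over the 8 libraries (red above, blue below). Knockout replicate 4 is the reddest column, with 1.27 for Egr2 and 1.17 for Egr1, and Nr4a1 runs opposite to Nr4a2 in all columns but knockout replicate 4.

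Among 11646 tested genes with a mean of at least 50, those with the profile closest to a given gene were found by the root mean square difference of centred log2 values over the 8 libraries. For Egr1 they were Abca9 (0.13), P2rx7 (0.14) and Tmtc2 (0.15), where Egr1's own profile has a root mean square of 0.66. For Nr4a1 they were Homer2 (0.13), Ccl27a (0.14) and Mlip (0.16), against 0.36 for its own profile. For Klf2 they were Zfp597 (0.12), Tgds (0.15) and Timm10b (0.15), against 0.29, and for Myc they were Cenpt (0.12), Acsf2 (0.12) and Glmn (0.12), against 0.34. These distances are a description over 8 libraries.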

How the data were processed

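Poly-A RNA from 8 mouse knee joints was sequenced, 4 labelled control and 4 labelled knockout by their titles. The values the authors deposited are a normalised signal, read counts per gene divided by a size factor for each library. Per the labels, reads were aligned to mm10, counted per gene with featureCounts and normalised and filtered with DESeq2, and HISAT2 is named in the submitters' processing notes; versions, annotation and strand setting are not given in the sources used here. Every value was a whole multiple of its column's smallest positive value (tolerance 0.01 of a read), and size factors recomputed from the whole numbers equalled the inverse of that step. The number of value columns left without a sample was 0.

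Genes that reached 10 in 4 or more libraries were tested on log2(value + 1) with limma 3.58.1 (intensity trend, 1 term for group), adjusted by Benjamini-Hochberg over all genes tested. A fold on this scale understates the change of low genes. Recovered whole reads were tested with edgeR 4.0.16 (quasi-likelihood, TMM) and DESeq2 1.42.0 as alternatives, and all tools were tested on simulated data first. Other alternatives were pseudocounts of 0.1 and 5, no filter or a filter of 50, quantile and TMM scaling, a rescaling of each library on the genes left after removing muscle, erythroid and neutrophil markers and the 50 highest genes, a replicate block, and leaving out each library. Coordinates, exon lengths and overlaps are from GENCODE M21, and promoters from RefSeq on GRCm38.p6, the same build as mm10. Named from each list were at most 4 rises and 4 falls called over all genes tested, by smallest p; a few genes that this rule names are not reported here. The genes, lists and tests were chosen with earlier results of these data known.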

Additional observations from a re-analysis of the deposited data

Results flagged for a closer look

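Among 49 genes examined in both groups, 6 had a library that lay farther from the rest of its group of 4 than Dixon's 95% critical value allows, where chance gives about 1 in 20 of the 98 groups. Of the 10 immediate early genes this was Myc alone, at 115 in control replicate 1 against 79.7 to 85.4 in the other controls. Knockout replicate 4 stood above its group for Junb (1077 against 787 to 818) and Btg1 (645 against 549.5 to 563). Knockout replicate 2 stood above its group for Dusp8, at 611 against 405 to 431. Control replicate 3 stood below its group for Mef2c, at 9696 against 11355 to 11655, and above it for Loxl2, at 1135 against 282 to 349.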

How the results depend on the processing

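Each result was recomputed under 18 alternatives, 8 of them leaving out a library. Egr1 and Ier2 were called under all 18, Nr4a2 under 16 and Ier3 under 10. The number of the 10 genes called, 4 in the report and all higher, was 2 with the replicate block and ranged from 2 to 4 when a library was left out, and the number called higher did the same. The number called lower, 0 in the report, was 1 with DESeq2 and ranged from 0 to 1 when a library was left out. Over all genes, 3461 were called in the report, 2018 with the replicate block (1117 higher and 901 lower), and 1751 to 3841 when a library was left out (831 to 1840 higher, 913 to 2001 lower). The rescaling without muscle, erythroid, neutrophil and the highest genes gave 2708 higher and 785 lower, 77.5% higher, where the report has 1732 higher and 1729 lower, and moved the median of all genes by 0.15.

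The log2 difference of Nr4a3 changed sign under the rescaling (0.11) and without control replicate 1 (0.02), control replicate 3 (0.0623) or knockout replicate 4 (0.00471), with leave-one-out values from -0.12 to 0.0623. That of Klf2 changed sign without control replicate 3 (-0.0438) or knockout replicate 4 (-0.13), with leave-one-out values from -0.13 to 0.16. The difference in log2 ratio changed sign for Egr2 to Egr1 without knockout replicate 1 (0.000133, leave-one-out range -0.46 to 0.000133) and for Klf4 to Klf2 without control replicate 2 (-0.0295, range -0.0295 to 0.29). These ratios were added after the data were seen. The cause of these changes was not tested. The labels give a replicate number but no pairing. Deviations from the group means correlated at 0.213, -0.118, -0.233 and -0.063 for the same-numbered pairs 1 to 4. For pairs of unlike number the correlations ran from -0.162 to 0.275. These values do not settle whether the numbers mark pairs, and the block was not used in the report's fit. Besides the counts above, the block removed the calls of Nr4a2 (limma adjusted p = 0.0531) and Ier3 (0.0574) among the 10 genes. Egr2, the scarcest of the 10 at 20.2 to 78.3 normalised reads per library, has the largest standard error of the 10, 0.33.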
